A study of Mus musculus with 6 samples.

Results

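Chemokines and their receptors were followed after injury of the kidney in dorsal root ganglia, which hold the cell bodies of spinal sensory neurons. The genes were all rows of the deposited table whose symbol marks a CC, CXC or XC chemokine, a receptor of these classes or an atypical chemokine receptor, 59 of 57180 genes; 3 further genes of these families are not analysed here. They comprised 14 ligands known mainly as homeostatic, 22 ligands known mainly as induced by inflammation, 16 signalling receptors, 4 atypical receptors and 3 pseudogenes. The I/R group was 3 wild-type mice under Zoletil anesthesia whose left renal pedicle was clamped for 28 min and released, which gives ischemia followed by reperfusion, and whose right kidney was removed. The Sham group was 3 wild-type mice operated in the same way without the clamp, and whether their right kidney was also removed is not stated separately. Ganglia from thoracic level 8 to lumbar level 2 were taken 24 h after surgery, and no label gives strain, age or sex. The comparison asks how these ganglia differ after renal I/R.

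Chemokines are small secreted proteins that attract leukocytes along a gradient. They are named by the spacing of their first cysteines (C, CC or CXC), and they act on G protein-coupled receptors on leukocytes, glia and neurons. Homeostatic chemokines are made continuously and place cells within tissues, whereas inflammatory chemokines are induced by cytokines and danger signals and recruit neutrophils, monocytes and lymphocytes. Atypical receptors bind chemokines without G protein signalling and clear, store or transport them. In sensory ganglia, chemokines released after nerve injury are known to attract macrophages and to sensitize nociceptors.

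Library totals lay between 20234079 and 22010227 expected counts in I/R and between 19092650 and 20390927 in Sham. A library with 0 counts of a gene can have missed up to 3, which is 0.137 to 0.154 CPM (counts scaled in each library to a common total). Markers of sensory neurons were abundant in every library, with 6 genes summing to 8620 to 9840 CPM in I/R and 8760 to 9390 CPM in Sham. The Sham libraries differed in another tissue: 8 skeletal muscle genes summed to 5.68, 11.4 and 8.62 CPM in I/R 1 to 3, and to 377, 15.1 and 197 CPM in Sham 1 to 3. Fibroblast and meningeal markers were lower in I/R, where 7 genes summed to 470 to 553 CPM, against 836 to 998 CPM in Sham. Of the 7, 6 were called lower (adjusted p under 0.05 in edgeR's test). Pdgfra was lower too (log2 fold change -0.33), but was not called and overlapped between groups. In RNA from whole ganglia, fewer cells of a type and less RNA per cell cannot be told apart.

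No chemokine or chemokine receptor gene that passed the filter on low counts differed by the test in the ganglia of I/R mice. Of the 59 genes, 48 had at least 1 count in some library, and 18 passed the filter on low counts and were tested. With edgeR's quasi-likelihood test, 0 of these 18 had an adjusted p under 0.05 over all genes, in a comparison in which 1.15% of 16346 tested genes were called (0.722% higher and 0.428% lower). DESeq2 and limma-voom also called 0 of the 18, with 2 and 3 at an unadjusted p under 0.05. At an unadjusted p under 0.05, 3 of the 18 stood out (16.7%), against 10.5% of all tested genes, and all 3 were ligands with lower values in I/R: Ccl7, Ccl11 and Cxcl16. Among genes with at least 10 counts in all, the largest ratio of I/R to Sham was that of Ccr1, a receptor of myeloid cells, with 36 counts over the I/R libraries and 5 over the Sham libraries, but it did not pass the filter. Of the tested genes, 14 lay below 0 and 4 above, a share of 77.8% below against 50.0% of all tested genes, and their median log2 fold change was -0.16 against 0.00 over all tested genes. A gene near the filter passes through the group where it is higher, so these shares describe the genes that passed and not the 59.

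**Figure D1:**
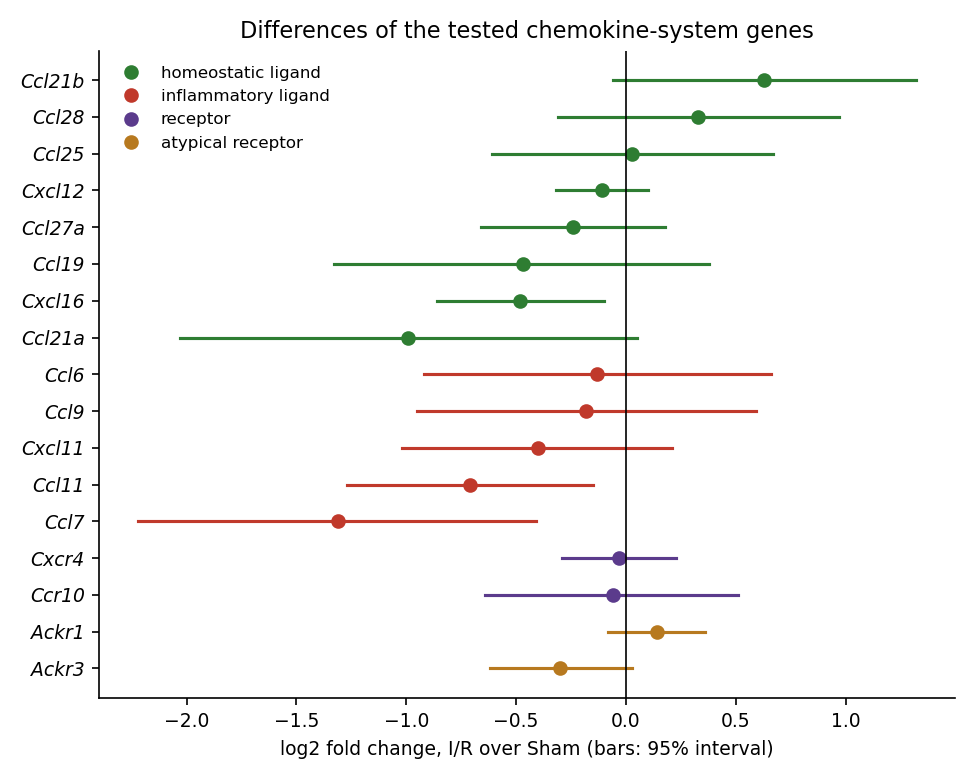
Log2 fold change of 17 of the 18 tested genes, I/R over Sham (points, edgeR's quasi-likelihood fit), with 95% intervals (horizontal bars), coloured by role. The intervals of Cxcl16, Ccl11 and Ccl7 lie below 0 before adjustment, and those of the other 14 genes shown include 0.

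Ranked by CPM per kilobase of the deposited gene length, 4 genes held most of the chemokine-system signal. Ackr1, Ccl27a, Cxcl12 and Cxcr4 made up 82.7% to 85.3% of the summed CPM per kilobase of the 59 genes in I/R libraries and 80.4% to 83.1% in Sham libraries. Ackr1 alone made up 50.4% to 55.2% in I/R and 44.5% to 48.7% in Sham, and its level is uncertain because its exons overlap those of Cadm3. With Ackr1 left out of the sum, the other 3 genes made up 65.1% to 67.1% in I/R and 64.1% to 67.2% in Sham. The 4 genes kept the same order in both groups, and at each step between them the library ranges did not overlap. The next ranks were held by Ccl25, Ccl11 and Ackr3 in I/R and by Ccl11, Ccl25 and Ackr3 in Sham, and the ranges of neighbours among these 3 overlapped.

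**Figure D2:**
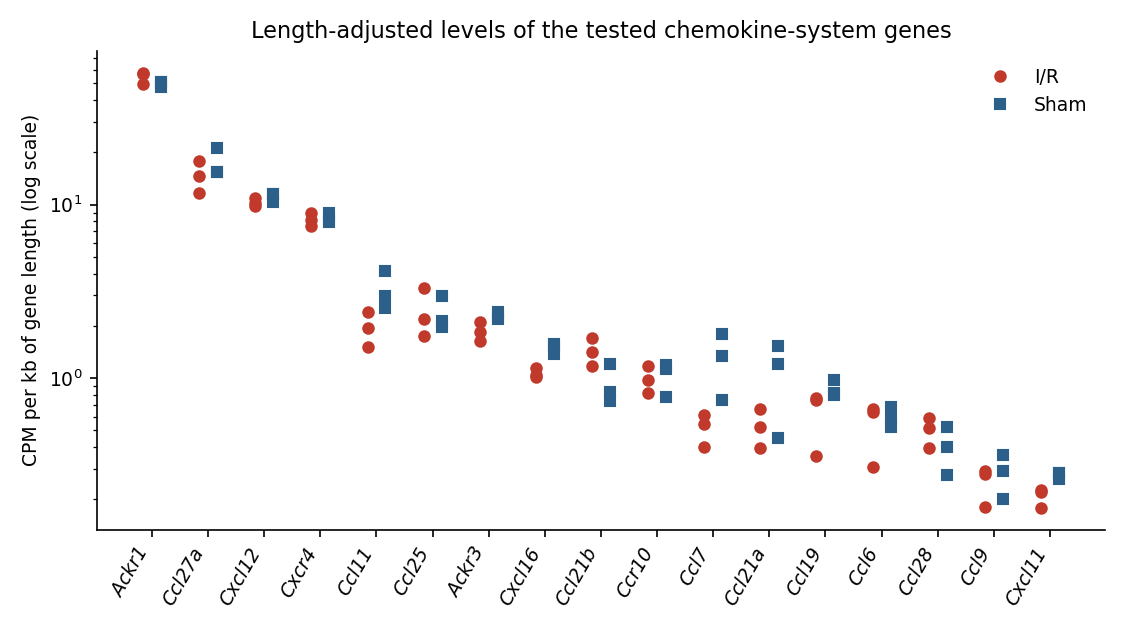
Level of 17 of the 18 tested genes in CPM per kilobase of gene length (log axis), ordered by the mean over the 6 libraries, with I/R libraries as circles and Sham libraries as squares. Ackr1 stands highest at 47.4 to 57.7 CPM per kilobase, and Ccl27a, Cxcl12 and Cxcr4 follow in each group.

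Among homeostatic ligands, Cxcl12 is the main partner of Cxcr4 and is known for guiding neuronal and immune cell migration. It had 61.1, 55.3 and 57.3 CPM in I/R 1 to 3, against 64.7, 58.5 and 64.5 CPM in Sham 1 to 3. The groups overlapped, and the log2 fold change was -0.11 ± 0.09 (SE), with an unadjusted 95% interval of -0.32 to 0.10 and an adjusted p of 0.733 in edgeR's test. Cxcr4, its signalling receptor, had 14.7, 13.7 and 16.2 CPM in I/R and 16.3, 14.4 and 14.9 CPM in Sham. Its groups overlapped too, with a log2 fold change of -0.03 ± 0.12 and an interval of -0.29 to 0.23. Ackr3, the atypical receptor that scavenges Cxcl12 and Cxcl11, had 5.04, 5.67 and 6.43 CPM in I/R, against 7.02, 7.35 and 6.68 CPM in Sham. Every I/R value of Ackr3 lay below every Sham value, by a small margin, and the log2 fold change of -0.30 ± 0.15 did not pass edgeR's test (adjusted p = 0.531). Per kilobase, Cxcl12 exceeded Cxcr4 in every library, 1.14 to 1.34 times in I/R and 1.28 to 1.40 times in Sham.

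Cxcl16 is a chemokine made as a membrane-bound protein, which binds Cxcr6 on T and NK cells. It had 3.11, 2.81 and 2.74 CPM in I/R 1 to 3, against 4.12, 4.25 and 3.70 CPM in Sham 1 to 3. The groups did not overlap, and the log2 fold change was -0.48 ± 0.17 (unadjusted p = 0.0174, adjusted p = 0.317 in edgeR's test). Sham 3 lay nearest to the I/R libraries. Its receptor Cxcr6 was near the limit of detection, with 5, 2 and 0 counts in I/R, against 3, 5 and 4 in Sham. In the GENCODE M21 annotation, exons of Cxcl16 share 552 bases with Zmynd15 on the opposite strand. No source used here gives the strand setting of the counting. Zmynd15 was rarer, at 1.39 to 1.83 CPM in I/R and 1.04 to 1.57 CPM in Sham (log2 fold change 0.36 ± 0.26). The deposited values of Cxcl16 were not whole numbers in any of the 6 libraries, and the part of shared reads was not tested.

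Ccl27a and Ccl28 are epithelial ligands of Ccr10. Ccl27a was the second highest gene per kilobase, with 10.6, 8.62 and 6.89 CPM in I/R and 9.13, 9.15 and 12.5 CPM in Sham (log2 fold change -0.24 ± 0.19). The value was -0.40 without I/R 1, -0.10 without I/R 3 and -0.07 without Sham 3. Its deposited values were not whole numbers in any library, and with which gene these reads were shared is not known. Its close copy Ccl27b had 0 expected counts in every library, and how reads fitting both copies were assigned is uncertain. Exons of Ccl27a share 8 bases with Il11ra1 on the opposite strand in GENCODE M21. Il11ra1 stood at a mean of 14.6 CPM in I/R and 19.6 CPM in Sham, and the part of this overlap was not tested. Ccl28 had 1.48, 1.94 and 2.19 CPM in I/R, against 1.03, 1.95 and 1.49 CPM in Sham (0.33 ± 0.29), and its log2 fold change was 0.20 without I/R 3, 0.12 without Sham 1 and 0.57 without Sham 2. Ccr10 had 2.03, 1.69 and 1.41 CPM in I/R, against 2.06, 1.95 and 1.34 CPM in Sham (-0.06 ± 0.26). The groups overlapped for all 3 genes of this axis, and the interval for Ccr10 ran from -0.64 to 0.51.

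Ccl25, known for drawing T cells to thymus and gut, had 2.87, 1.89 and 1.51 CPM in I/R, against 1.72, 1.85 and 2.57 CPM in Sham (log2 fold change 0.03 ± 0.29). The groups overlapped widely, and its receptor Ccr9 had 2 counts over I/R and 5 over Sham libraries. Exons of Ccl25 share 204 bases with Elavl1 on the opposite strand in GENCODE M21, a gene at 33.5 to 43.7 CPM in I/R and 36.4 to 38.7 CPM in Sham. The part of such overlap in the counts of Ccl25 was not tested.

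The ligands of Ccr7, which lead dendritic cells and T cells to lymph nodes, gave opposite values for near-identical copies. Ccl21a had 6.57, 11.87 and 10.24 expected counts in I/R 1 to 3, against 7.5, 20.66 and 26.49 in Sham 1 to 3 (edgeR log2 fold change -0.99 ± 0.47, with an adjusted p of 0.503, and -0.64 without Sham 3). Ccl21b had 30.41, 20.56 and 26.88 expected counts in I/R, against 13.25, 20.67 and 13.76 in Sham (0.63 ± 0.31, adjusted p = 0.529). Summed with Ccl21d, another copy of 0.01 expected counts at most, they stood at 1.70 ± 0.128 CPM in I/R and 1.72 ± 0.606 CPM in Sham (SD, n = 3 each). The summed values overlapped between groups, and the values of both copies were not whole numbers in all 6 libraries. Ccl19 had 12.27, 12.00 and 5.59 expected counts in I/R, against 12.58, 15.00 and 11.75 in Sham (-0.47 ± 0.38, and -0.19 without I/R 3). Its CPM values did not overlap, but with its 3 pseudogenes added they did, at 0.766 ± 0.0782 CPM in I/R and 0.866 ± 0.132 CPM in Sham. Ccr7 itself had 3, 2 and 3 counts in I/R, against 0, 2 and 2 in Sham, and the one pseudogene with counts, Ccl19-ps2, had 4.73, 4 and 9.41 expected counts in I/R, against 2.42, 5 and 5 in Sham.

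Among the 5 inflammatory ligands that passed the filter, the log2 fold changes lay between -1.31 and -0.13, with Ccl7 and Ccl11 the lowest. Of all tested genes, 50.0% lay below 0, and the filter itself bears on this count: Ccl7 had most of its counts in Sham, while Ccl8 and Cxcl1, with more counts in I/R, did not pass. Ccl7, a monocyte attractant that binds several CC receptors, had 10, 9 and 7 counts in I/R 1 to 3, against 22, 12 and 28 in Sham 1 to 3. That is 0.494, 0.436 and 0.319 CPM in I/R and 1.08, 0.600 and 1.44 CPM in Sham, so the groups did not overlap, and Sham 2 lay closest to I/R. The log2 fold change was -1.31 ± 0.41 (unadjusted p = 0.00917, adjusted p = 0.236 in edgeR's test). Sham 1 and Sham 3 are also the libraries with most muscle transcripts. The log2 fold change of Ccl7 was -0.55 against Sham 2 alone and -0.50 with the muscle level as a covariate. In the same fits it was -0.62 and -0.75 for Ccl11, and -0.58 and -0.57 for Cxcl16. Every I/R library had a lower muscle marker sum than every Sham library (5.68 to 11.4 against 15.1 to 377 CPM). Muscle level and group therefore cannot be told apart.

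Ccl11, eotaxin 1, attracts eosinophils through Ccr3 and is known to be made by fibroblasts. It had 53, 34 and 46 counts in I/R 1 to 3, against 56, 64 and 87 in Sham 1 to 3, or 2.12 ± 0.487 CPM in I/R and 3.47 ± 0.894 CPM in Sham (SD, n = 3 each). The I/R and Sham values did not overlap, but I/R 1 at 2.62 CPM lay next to Sham 1 at 2.75 CPM. The log2 fold change was -0.71 ± 0.25 (unadjusted p = 0.0186, adjusted p = 0.326 in edgeR's test). Its receptor Ccr3 had 2 counts over I/R and 3 over Sham libraries. The fibroblast and meningeal markers given above were also lower in I/R, as were mast cell markers. The 4 mast cell genes summed to 1.23 to 2.03 CPM in I/R and 3.88 to 7.46 CPM in Sham. All 4 had every I/R value below every Sham value, and edgeR's test called Mcpt4 and Cma1 lower, but not Cpa3 and Tpsb2. None of these mast cell markers was at 0 in all libraries. The part of either cell type in the values of Ccl11 and Ccl7 was not tested.

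Cxcl11, an interferon-induced ligand of Cxcr3, had 0.840, 0.678 and 0.867 CPM in I/R, against 1.08, 1.00 and 1.08 CPM in Sham. These groups did not overlap either, with a log2 fold change of -0.40 ± 0.28 and an adjusted p of 0.669 in edgeR's test. Ccl6, a rodent ligand of Ccr1 made by myeloid cells, had 0.445, 0.920 and 0.958 CPM in I/R, against 0.835, 0.750 and 0.977 CPM in Sham (-0.13 ± 0.35). Ccl9, another rodent ligand of Ccr1, had 0.840, 0.872 and 0.548 CPM in I/R, against 1.08, 0.600 and 0.874 CPM in Sham (-0.18 ± 0.35). The groups overlapped for both. Exons of Cxcl11 share 1582 bases with Gm2673 on the opposite strand in GENCODE M21, a gene at 0.0838 CPM at most in I/R and 0.346 CPM at most in Sham. In all, 6 of the 18 tested genes had every I/R value below every Sham value (33.3%, against 7.83% of all tested genes), and none had every I/R value above (9.23% of all tested genes). Besides Ccl7, Ccl11, Cxcl16 and Cxcl11, the 6 genes were Ackr3 and Ccl19. Ccl7 (26 counts over I/R and 62 over Sham libraries) and Ccl19 (30 and 40) stood near the filter. A gene there passes through the group where it is higher, so these shares describe the genes that passed and not the 59. Ccr1, with every I/R value above, did not pass the filter.

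**Figure D3:**
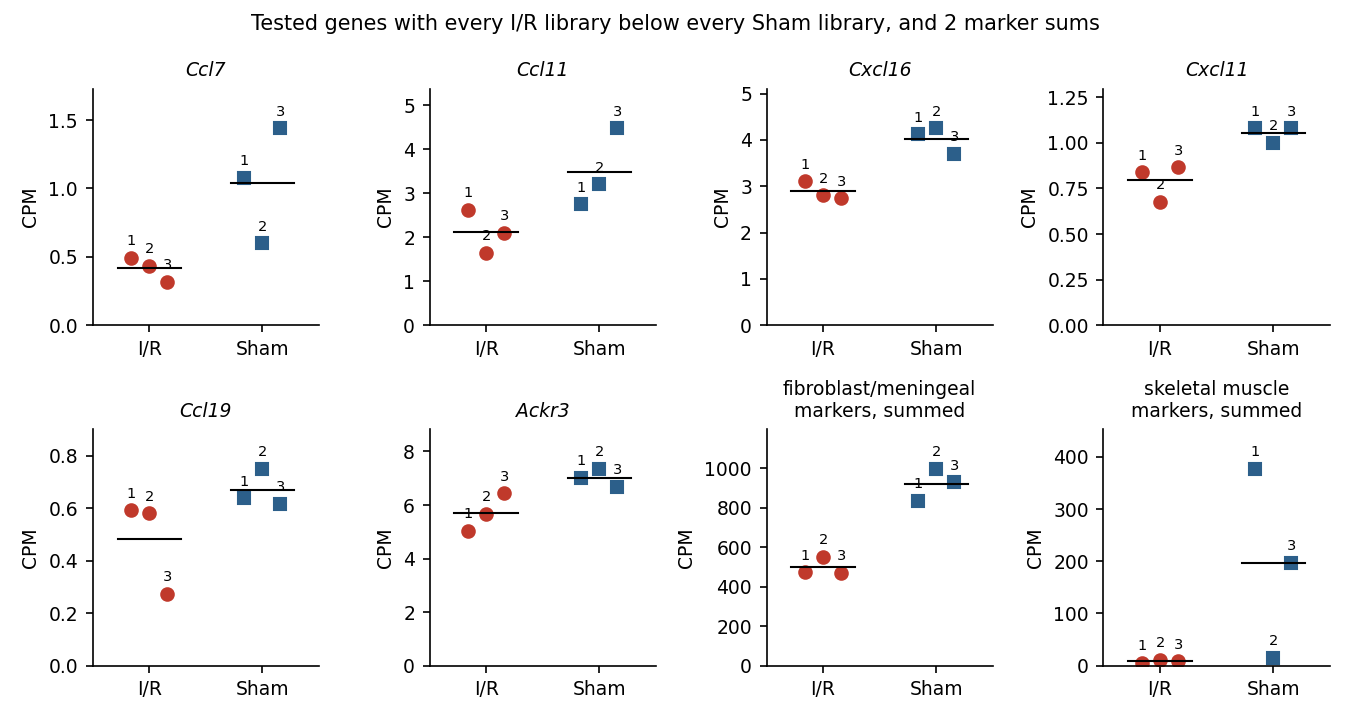
CPM of the 6 tested genes whose I/R libraries (circles) all lay below the Sham libraries (squares), with replicate numbers beside the points and group means as lines, and the summed CPM of 7 fibroblast and meningeal and 8 skeletal muscle markers. Ccl7 in Sham 2 (0.600 CPM) lies nearest to I/R, and the same library has 15.1 CPM of muscle transcripts against 377 and 197 in Sham 1 and Sham 3.

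Ackr1, the Duffy receptor, binds many inflammatory CC and CXC chemokines and is known from venular endothelium and red cells. It had 66.5, 57.2 and 65.4 CPM in I/R 1 to 3, against 58.6, 54.7 and 58.4 CPM in Sham 1 to 3. The groups overlapped, and the log2 fold change was 0.14 ± 0.10, with an interval of -0.08 to 0.36 and an adjusted p of 0.678 in edgeR's test. Venular markers (Selp, Sele and Vwf) summed to 42.7 to 46.7 CPM in I/R and 28.7 to 37.4 CPM in Sham. Nearly all of this sum was Vwf, at a mean of 43.3 CPM in I/R and 33.1 CPM in Sham. Vwf was not called (adjusted p = 0.217 in edgeR's test). The sum of 5 general endothelial markers overlapped between groups, at 116 to 123 CPM in I/R and 106 to 124 CPM in Sham. These markers differed in direction, and none was called. Every I/R value lay above every Sham value for Pecam1 (log2 fold change 0.32) and Kdr (0.17). The groups overlapped for Cdh5 (-0.24), Cldn5 (0.03) and Tie1 (-0.20). Red cell genes, also 5, summed to 52.8 to 86.6 CPM in I/R and 181 to 271 CPM in Sham, and all 5 were called lower. The part of these cells in the level of Ackr1 was not tested.

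The level of Ackr1 carries an uncertainty of assignment. In GENCODE M21 its exons share 361 bases on the same strand with exons of Cadm3, a neuronal adhesion gene. Cadm3 stood at 834, 899 and 912 CPM in I/R 1 to 3, against 880, 868 and 804 CPM in Sham 1 to 3, and Ackr1 amounted to 6.29% to 7.97% of the Cadm3 count in the 6 libraries. The deposited values of Ackr1 were not whole numbers in any of the 6 libraries. Strand cannot separate these genes, so the level and the first rank of Ackr1 are uncertain, and the part of shared reads was not tested. Cadm3 had a log2 fold change of 0.05 ± 0.09.

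Ackr2, which clears inflammatory CC chemokines, and Ackr4, which clears Ccl19, Ccl21 and Ccl25, were under the filter. Ackr2 had 6, 7 and 7 counts in I/R, against 4, 4 and 6 in Sham. Ackr4 had 7.12, 6.13 and 8.10 expected counts in I/R, against 10, 3 and 7 in Sham. Both overlapped between groups. The 95% counting intervals of the ratio ran from 0.654 to 2.91 for Ackr2 and from 0.516 to 1.94 for Ackr4, so no difference was detectable at this depth. Exons of Ackr4 share 479 bases with Acad11 on the opposite strand in GENCODE M21. Acad11 stood at 18.5 to 25.7 CPM in I/R and 21.7 to 27.3 CPM in Sham. Ackr4 amounted to 0.55% to 1.99% of the Acad11 count, and the part of such overlap in its counts was not tested.

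Under the filter on low counts stood 17 genes with at least 10 counts in all, 13 with fewer and 11 with none. Ccr1, a receptor for Ccl5, Ccl6, Ccl7 and Ccl9 on monocytes, macrophages and neutrophils, had 20, 7 and 9 counts in I/R 1 to 3, against 3, 2 and 0 in Sham 1 to 3. Every I/R library lay above every Sham library, all 3 of which were at or under 3 counts. Scaled to library size, the ratio was 6.86, with a 95% counting interval of 2.68 to 22.4. When every gene with a count was tested, Ccr1 was called (edgeR log2 fold change 2.70 ± 0.72, with an adjusted p of 0.0355), 1 of 48 genes of the system and the only one, in a fit that called 1.68% of 29449 genes, and 0.873% of the 29449 as higher. With genes of at least 10 counts in all, an alternative added after seeing the data, it was not called (adjusted p = 0.201), nor in DESeq2 (0.394) or limma-voom (0.18) without a filter. Without the filter it stayed called without I/R 2 (adjusted p = 0.0128), without Sham 1 (0.0469), with RLE scaling (0.0367) and with robust dispersion (0.00897). It was not called without I/R 1 (0.288), I/R 3 (0.307), Sham 2 (0.0548) or Sham 3 (0.203).

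Ccl8, in mice a ligand of Ccr8, had 17, 7 and 5 counts in I/R, against 5, 1 and 3 in Sham. I/R 1 stood far above the rest, I/R 3 overlapped Sham 1, and the ratio was 3.07 (95% counting interval 1.41 to 7.37). In the fit of all genes with a count, its log2 fold change was 1.59 ± 0.68 (adjusted p = 0.434 in edgeR's test), and 0.88 without I/R 1. Ccr8 had no count in any library. Ccr1 and Ccl8 were taken up here after their values were seen, as the genes under the filter with an unadjusted p under 0.05 in that fit. Macrophage markers summed to 47.9 to 48.9 CPM in I/R and 40.2 to 42.1 CPM in Sham over 7 genes, of which none was called and none was at 0. Every I/R value lay above every Sham value for Cd68 (log2 fold change 0.74) and Mrc1 (0.40). The groups overlapped for Csf1r (0.13), Adgre1 (0.15), C1qa (0.22), C1qb (0.30) and Aif1 (-0.32). The part of macrophages in Ccr1 was not tested.

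The 250 bases before the annotated start of Ccr1 and Ccl8, shown as the genes with at least 10 counts whose ratio of I/R to Sham was highest, are given 5′ to 3′ on the gene's strand from RefSeq (GRCm38.p6, not the build of the counts). Capitals mark matches on either strand to the TATA box (TATAAA), the core of the PU.1 motif of myeloid cells (GAGGAA) or a loose kappaB pattern (GGG, then any 5 bases, then CC).
Ccr1, chr9:123968693-123968942, minus strand: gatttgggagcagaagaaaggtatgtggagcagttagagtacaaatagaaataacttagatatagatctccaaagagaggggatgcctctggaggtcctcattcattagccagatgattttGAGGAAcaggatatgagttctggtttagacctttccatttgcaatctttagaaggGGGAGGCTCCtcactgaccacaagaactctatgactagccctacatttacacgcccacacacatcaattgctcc
Ccl8, chr11:82114935-82115184, plus strand: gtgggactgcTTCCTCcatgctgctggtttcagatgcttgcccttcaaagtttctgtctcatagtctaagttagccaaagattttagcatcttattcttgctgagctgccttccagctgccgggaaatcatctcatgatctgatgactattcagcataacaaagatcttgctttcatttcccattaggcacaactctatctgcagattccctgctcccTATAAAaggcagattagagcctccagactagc
The Ccr1 window held 1 PU.1 core and 1 kappaB pattern and no TATA box, whereas the Ccl8 window held 1 TATA box and 1 PU.1 core. Among 32851 windows of the same length in the table, 12.4% held the TATA box, 23.3% the PU.1 core and 45.8% the kappaB pattern. Of 49 windows of 42 genes of the system, 26.5% held the TATA box, 32.7% the PU.1 core and 51.0% the kappaB pattern. These matches are letters in a window and no measure of binding.

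**Figure D4:**
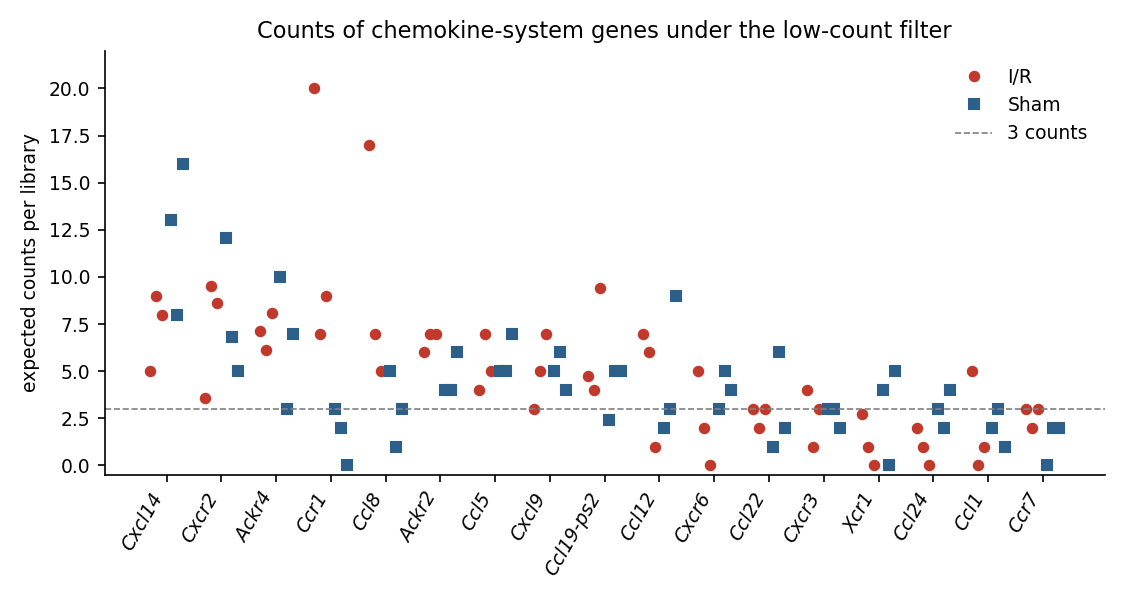
Expected counts per library of the 17 genes under the filter that had at least 10 counts in all, ordered by their sum, with I/R libraries as circles, Sham libraries as squares and a dashed line at 3 counts. Ccr1 is the 1 gene whose I/R values (20, 7 and 9) all lie above its Sham values (3, 2 and 0), and most other genes overlap.

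Neutrophil-attracting ligands were almost undetected. Cxcl2 and Cxcl3 had no count in any library, and Cxcl1 and Cxcl5 brought the sum of the 4 genes to 5, 1 and 4 counts in I/R 1 to 3, against 2, 0 and 1 in Sham 1 to 3. The ratio for Cxcl1, with 7 counts over I/R and 2 over Sham libraries, had a counting interval of 0.635 to 32.9 and so includes equality. Their receptor Cxcr2 had 3.60, 9.54 and 8.63 expected counts in I/R, against 12.07, 6.84 and 5 in Sham, with overlap, and Cxcr1 had none. The 6 neutrophil markers summed to 10.3 to 13.7 CPM in I/R and 11.4 to 18.0 CPM in Sham, and none of the 5 that passed the filter was called. They differed in direction. Every I/R value lay above every Sham value for Ly6g, under the filter with 24 counts over I/R and 2 over Sham libraries, and for Mpo (log2 fold change 0.77). Every I/R value lay below for Camp (-0.84), and the groups overlapped for S100a8 (-0.37), S100a9 (-0.26) and Ngp (0.02).

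Ccl5, which attracts T cells and monocytes, had 4, 7 and 5 counts in I/R, against 5, 5 and 7 in Sham. Its relatives Ccl3 and Ccl4 had 1 and 3 counts over the I/R libraries, against 3 and 1 over the Sham libraries. Cxcl9, induced by interferon gamma, had 3, 5 and 7 counts in I/R, against 5, 6 and 4 in Sham, and its receptor Cxcr3 had 4, 1 and 3 in I/R, against 3, 3 and 2 in Sham. All 5 genes overlapped between groups. Markers of T and NK cells summed to 0.593 to 1.23 CPM in I/R and 0.25 to 0.874 CPM in Sham over 5 genes, none of which passed the filter. Xcl1, made by T and NK cells, had 0 counts over I/R and 3 over Sham libraries. Xcr1, its receptor on dendritic cells, had 2.73, 1 and 0 expected counts in I/R, against 4, 0 and 5 in Sham. At such counts no fold is informative: the interval for Cxcr3 ran from 0.312 to 2.91.

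Other ligands under the filter included Cxcl14, an epithelial chemokine, with 5, 9 and 8 counts in I/R, against 13, 8 and 16 in Sham. Its groups overlapped, with a ratio of 0.566 and a counting interval of 0.318 to 0.985. Ccl24, eotaxin 2, had 2, 1 and 0 counts in I/R, against 3, 2 and 4 in Sham, so that all I/R values lay below all Sham values once scaled to library size, but its ratio had a counting interval of 0.0553 to 1.27. Ccl12, a mouse monocyte attractant, had 7, 6 and 1 counts in I/R, against 2, 3 and 9 in Sham. Ccl22, a ligand of Ccr4, had 3, 2 and 3 counts in I/R, against 1, 6 and 2 in Sham, and Ccl1, a ligand of Ccr8, had 5, 0 and 1 in I/R, against 2, 3 and 1 in Sham. These 3 genes overlapped between groups. Cxcl13, which guides B cells, had 1 count in each I/R library and 0 in each Sham library, and Ccl17, which attracts T cells through Ccr4, had 0 in each I/R and 1 in each Sham library. Single counts of this kind do not separate the groups beyond counting error, as the interval for Ccl17 ran from 0 to 2.30. Ccl20 had 2 counts over each group, Cxcl17 had 0 over I/R and 1 over Sham libraries, the B cell receptor for Cxcl13, Cxcr5, had 4 over I/R and 2 over Sham libraries, and Ccr4 had 1 over I/R and 0 over Sham libraries. Besides Cxcl2, Cxcl3, Cxcr1, Ccr8, Ccl27b and Ccl21d, the genes with no rounded count were Cxcl15, Ccl26, Ccr6, Ccl19-ps1 and Ccl19-ps3.

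Of 42 other genes of the chemokine system that do not share these names, 40 were tested, and edgeR's test called 1 higher and 0 lower, with 9 at an unadjusted p under 0.05, where 1.15% of all tested genes were called and 10.5% had such a p. The called gene was Sdc1, syndecan 1, a heparan sulfate proteoglycan that binds chemokines at the cell surface. It had 105, 96.9 and 89.6 CPM in I/R 1 to 3, against 39.5, 47.6 and 37.7 CPM in Sham 1 to 3, with no overlap (edgeR log2 fold change 1.22 ± 0.12, with an adjusted p of 0.000772). Sdc1 lost its call against Sham 2 alone (log2 fold change 1.01) and with the muscle level as a covariate (0.98, adjusted p = 0.16 in edgeR's test). It stayed called in edgeR with each library left out (adjusted p = 0.000739 to 0.0119) and with the replicate block (0.0189). DESeq2 (8.28e-17) and limma-voom (0.000849) called it too. Mmp2, a protease known to cleave Cxcl12 and Ccl7, had 10.3, 14.3 and 11.3 CPM in I/R, against 19.6, 21.5 and 17.4 CPM in Sham. Its groups did not overlap (-0.70 ± 0.15), with an adjusted p of 0.0625 in edgeR's test and 0.00326 in DESeq2. Dpp4, a peptidase that trims Cxcl12 and Ccl11, had 0.346, 0.242 and 0.913 CPM in I/R, against 1.03, 1.35 and 2.06 CPM in Sham (-1.53 ± 0.47, adjusted p = 0.23 in edgeR's test). Without the filter on low counts its adjusted p in edgeR was 0.0291. It was not called in DESeq2 (adjusted p = 0.137), in limma-voom (0.197) or in edgeR with any library left out (0.127 to 0.533).

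Of the 25 tested signalling genes downstream of the receptors, 0 were called (1.15% of all tested genes) and 4 had an unadjusted p under 0.05 (10.5% of all tested genes). The lowest p was that of Pik3cg, the kinase of the class activated by receptor-coupled G proteins, at 1.54 ± 0.347 CPM in I/R and 0.805 ± 0.149 CPM in Sham (edgeR log2 fold change 0.93 ± 0.30, with an adjusted p of 0.25). Of the 7 tested genes listed as chemokines and receptors outside the name pattern, 0 were called and 1 had an unadjusted p under 0.05. The shares of all tested genes were the same 1.15% and 10.5%. The gene with such a p was Gpr35, a receptor of sensory neurons and immune cells, whose binding of a chemokine was not tested. It stood at 33.7 ± 3.45 CPM in I/R and 42.0 ± 2.50 CPM in Sham (-0.32 ± 0.11, adjusted p = 0.293 in edgeR's test). Over the 40 genes of this list, 21 lay above 0 and 19 below, with a median log2 fold change of 0.01.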

How the data were processed

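RNA of ganglia was sequenced in 6 libraries, from 3 mice per group by the series' design text. The authors deposited expected counts, estimated reads per gene not scaled to library size, of which 10.7% to 11.5% per library were not whole numbers. Per the submitters' processing notes, fastp, HISAT2, StringTie and GRCm39 were used; no source used here gives the counting program, its strand setting or the annotation. Per the labels' protocols, libraries came from a stranded mRNA kit. Other columns used were the deposited gene length in bases; the authors' group means equal the means of the libraries and entered no test.

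Counts were rounded and tested on the whole table with edgeR 4.0.16 (quasi-likelihood, TMM, filterByExpr, Benjamini-Hochberg) in R 4.3.3, with calls at an adjusted p under 0.05. Levels are CPM over library sizes scaled by TMM, divided by gene length where genes are compared. Standard errors are the absolute log2 fold change over the square root of the F statistic, and unadjusted 95% intervals from the fit's degrees of freedom. Ratios of summed counts have exact conditional 95% intervals, which, like the limit for 0 counts, cover counting error only, as reads lacking molecular identifiers may repeat a molecule. The fit was also run on simulated data with 200 changed genes, and the outcome of that run is not given here. Libraries of a group differed beyond sampling noise (chi-square per degree of freedom 4.05 to 27.9), so all 6 were kept as replicates.

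Every member passing the filter is named but 1, which enters the counts over the list and is not reported here, and of the list of other pathway genes the called one and the next 4 by p. The members and lists were chosen with earlier results of these data known. Alternatives were RLE and upper-quartile scaling, DESeq2 1.42.0, limma-voom (limma 3.58.1), robust dispersion, other filters, the replicate number as a block, a muscle covariate, Sham 2 alone, and each library left out. The exon overlaps come from GENCODE M21 (GRCm38), an older build than that of the counts.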

Additional observations from a re-analysis of the deposited data

How the results depend on the processing

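edgeR called 188 genes of the whole table. DESeq2 called 312 and the fit with no filter on low counts 494; the replicate block called 63, Sham 2 alone against I/R 32, the skeletal muscle covariate 25, and leaving out each library 87 to 181 (87 without I/R replicate 2, 98 without I/R replicate 3 and 93 without Sham replicate 1 were the fewest). With Sham 2 alone, the lone library is assumed to vary like the I/R libraries. Of the chemokine and receptor genes, 0 were called in every alternative except the fit with no filter, which called 1, Ccr1. In fits combining no filter with a library left out, chosen after seeing the data, Ccr1 was called without I/R replicate 2 and without Sham replicate 1, Ccl11 without I/R replicate 1 and Ccl7 without Sham replicate 2. Same-numbered libraries had correlations of -0.106, 0.135 and -0.123, not every library correlated best with its own number, and the labels do not pair them; with the replicate block, 0 chemokine or receptor genes were called, and the adjusted p of Ccr1 without a filter was 0.233. That of Ccr1 was 1 with the muscle covariate and 0.828 with Sham 2 alone, both without a filter.

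Log2 fold changes near 0 turned sign, in genes not called in these fits, and the cause was not tested. In limma-voom, Ccl25 was -0.01. With a library left out, Ccl25 ranged from -0.27 to 0.22, Ccl6 from -0.32 to 0.14, Ccl9 from -0.38 to 0.03, Ccr10 from -0.23 to 0.06 and Cxcr4 from -0.09 to 0.02. Against Sham 2 alone, Ccl6 was 0.02, Ccl9 0.30, Cxcr4 0.02 and Ccl28 -0.08. With the muscle covariate, Ccl6 was 0.18, Ccl9 0.45, Cxcr4 0.07 and Ccl28 -0.15.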
